A study of Mus musculus with 8 samples.

Results

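Dll1+ mammary tumor cells from 2 reporter lines of the MMTV-PyMT mouse were compared: 2 libraries from PyMT-Dll1mCh mice against 2 libraries from PyMT-Dll1GFP mice, 4 of the 8 libraries of the series, chosen by their reporter and Dll1 labels alone. MMTV-PyMT mice carry the polyoma middle T oncogene under the mouse mammary tumor virus promoter, and their tumors are luminal adenocarcinomas. All 4 mice carried this transgene, and the study's methods place its tumor mice on a C57BL/6 background. In PyMT-Dll1mCh mice a Dll1-mCherry reporter transgene built on a bacterial artificial chromosome marks the cells, and in PyMT-Dll1GFP mice the mark is a Dll1 GFP-IRES-Cre-ERT2 knock-in allele. A Dll1+ cell was therefore an mCherry-positive cell in the first line and a GFP-positive cell in the second. Tumors were digested with collagenase and hyaluronidase, cells bearing CD45, CD31 or Ter119 were removed in the sort, and total RNA of the remaining reporter-positive and reporter-negative cells was made into stranded Illumina TruSeq libraries. Each mouse gave 1 Dll1+ and 1 Dll1- library. Mouse age and library dates are not given in the sources used here. Reporter, line and any batch changed together, so a difference described here lies between 2 sets of 2 libraries, and reporter, line, colony background and batch cannot be told apart.

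Dll1 is a membrane-bound ligand of the Notch pathway. A ligand on one cell pulls on a Notch receptor on its neighbour, the receptor is cut by ADAM proteases and gamma-secretase, and the freed intracellular domain joins the DNA-binding protein RBPJ and the Mastermind coactivators to switch on target genes such as those of the Hes and Hey families. In the mammary gland Notch signalling takes part in luminal and basal fate choice, and Dll1-bearing cells are described both among basal stem cells and, in this tumor model, among luminal tumor cells.

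The 4 Dll1+ libraries held 28184563 to 66979980 estimated counts and the 8 libraries of the series 27301396 to 123907626. Values are given as CPM (counts per 1e6 counts) after TMM scaling, separately for each library, and fold changes are log2 of mCherry over GFP, with the standard error (SE) and the Benjamini-Hochberg adjusted p of edgeR's quasi-likelihood test, 2 libraries a group. A gene is called different where the adjusted p was under 0.05. The first principal component held 65.8% of the variance and separated the 2 lines, with scores of -61.9 and -69.3 for GFP and 65.9 and 65.3 for mCherry. The labelled cell type was checked by its markers. Epcam, the epithelial adhesion molecule, stood at 1111 and 1089 CPM in the GFP libraries and 1211 and 1214 CPM in the mCherry libraries. Ptprc, which encodes CD45, was at 4.44 and 3.28 CPM with GFP and 6.401 and 5.21 CPM with mCherry, Pecam1, which encodes CD31, was at 14.4 and 13.96 CPM with GFP and 24.9 and 23.6 CPM with mCherry, and Pdgfrb, a receptor of pericytes and fibroblasts, was at 9.58 and 9.83 CPM with GFP and 33.1 and 30.2 CPM with mCherry. Epcam transcripts were thus abundant in all 4 libraries, and Ptprc and Pecam1, which mark the depleted cells, were detected in each.

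Of 19630 genes tested, 2269 (11.6%) were higher and 2470 (12.6%) lower in mCherry than in GFP Dll1+ cells, with a median log2 fold change of 0.03 over all genes. The 11.6% and 12.6% are the shares to set beside every list of genes below. More than 2-fold differences were called for 1037 higher and 1151 lower genes, and more than 4-fold differences for 379 and 404. The libraries of the 2 lines did not overlap for 13585 of the 19630 genes tested and for 4732 of the 4739 genes called. At an unadjusted p under 0.05 there were 8174 genes, and the lowest adjusted p was 0.00992. These calls depended on having both GFP libraries. Without GFP replicate 1, edgeR's quasi-likelihood test called 0 genes, with 5299 at an unadjusted p under 0.05, and without GFP replicate 2 it called 0, with 4573 at an unadjusted p under 0.05. Each call between the lines in Dll1+ cells given below is therefore lost without either GFP library, and this is not repeated. Without mCherry replicate 1 there were 2918 higher and 2735 lower genes, and without mCherry replicate 2 there were 3115 and 3042. The mice within a group are separate animals by their labels, but 2 libraries a group leave the spread between mice poorly known. In sorted bulk cells, fewer cells of a type and less RNA per cell cannot be told apart.

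Dll1 itself (ENSMUSG00000014773, GRCm38.p6 chr17:15367354-15376872, minus strand) was the first gene examined, since both sorts rest on it. Dll1 stood at 88.4 and 137 CPM in the GFP libraries and 204 and 245 CPM in the mCherry libraries, and all mCherry values lay above all GFP values. The difference was 0.99 ± 0.25 on the log2 scale with an adjusted p of 0.044. It was close to the threshold: the log2 fold change was 0.69 without GFP replicate 1 and 1.36 without GFP replicate 2, and the call was lost without mCherry replicate 1 (1.12, adjusted p = 0.0569), without mCherry replicate 2 (0.84, adjusted p = 0.104), with all 8 libraries in one fit (0.995, adjusted p = 0.0635) and after an offset for GC content and transcript length (0.74, adjusted p = 0.0918). In the Dll1- cells of the same mice Dll1 was at 7.55 and 13.7 CPM with GFP and 35.6 and 50.5 CPM with mCherry (1.98 ± 0.36, adjusted p = 0.0249). Dll1 was therefore higher in the mCherry line on both sides of the sort, and within each line the Dll1+ libraries lay above the Dll1- libraries.

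Genes beside Dll1 were read next, because a reporter built from a large genomic fragment can carry neighbouring genes and how far the fragment reaches is not given in the sources used here. Fam120b, whose start lies 19.3 kb from that of Dll1 on the opposite strand (chr17:15396202-15433583, plus strand), stood at 69.8 and 81.9 CPM in the GFP libraries and 253 and 282 CPM in the mCherry libraries (log2 fold change 1.81 ± 0.15, adjusted p = 0.00992). It was also higher in mCherry Dll1- cells (58.1 and 63.2 against 239 and 219.5 CPM, log2 fold change 1.88 ± 0.11, adjusted p = 0.0151), and all 4 mCherry values of Fam120b lay above all 4 GFP values. A930024N18Rik, a noncoding gene that overlaps the 5′ end of Dll1 on the other strand (chr17:15375000-15379475, plus strand), was at 0.563 and 0.910 CPM with GFP and 4.23 and 3.73 CPM with mCherry (log2 fold change 2.40 ± 0.36, adjusted p = 0.0153). Whether counting used the strand is not given in the sources used here, so reads of A930024N18Rik and of Dll1 may not be separable.

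Farther out, Psmb1, a core subunit of the proteasome with its start 122.9 kb away, was at 119 and 121 CPM with GFP and 189 and 174 CPM with mCherry (log2 fold change 0.59 ± 0.11, adjusted p = 0.0229). Pdcd2, at 150.4 kb and overlapping Tbp, was at 11.4 and 12.1 CPM with GFP and 18.5 and 19.9 CPM with mCherry (log2 fold change 0.70 ± 0.15, adjusted p = 0.0271). Tbp, the TATA-binding protein, lies between them and was not called, at 17.3 and 19.4 CPM with GFP and 15.9 and 14.8 CPM with mCherry (log2 fold change -0.26 ± 0.15, adjusted p = 0.24). Prdm9, the meiotic histone methyltransferase at 187.5 kb, was lower at 10.3 and 12.2 CPM with GFP and 6.81 and 4.88 CPM with mCherry (log2 fold change -0.95 ± 0.24, adjusted p = 0.0417). The direction thus turned between Pdcd2 and Prdm9. On the other side Thbs2, a matricellular thrombospondin at -682.6 kb (a minus sign marks lower coordinates), was higher (log2 fold change 1.04 ± 0.13, adjusted p = 0.0127), while Ermard (log2 fold change -0.69 ± 0.15, adjusted p = 0.0298) and 9030025P20Rik (log2 fold change -1.31 ± 0.26, adjusted p = 0.0248) were lower. Within 250 kb of the Dll1 start, 4 of 7 other genes tested were higher and 1 lower (median log2 fold change 0.59), within 1000 kb 5 of 20 were higher and 3 lower (median -0.24), and within 5000 kb 10 of 67 were higher and 12 lower (median -0.33). The fragment's part in these differences was not tested.

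**Figure D1:**
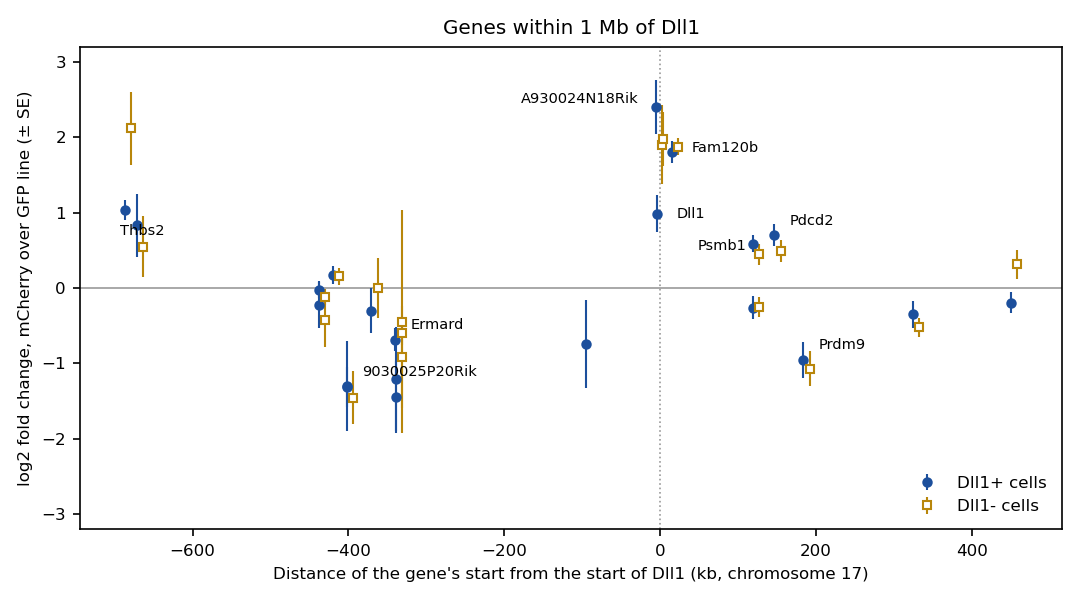
Log2 fold change of mCherry over GFP for each gene tested around Dll1, against the distance in kb of its start from the Dll1 start, in Dll1+ cells and in Dll1- cells, with bars for the SE. Fam120b, at 19.3 kb, stands at 1.81 in Dll1+ and 1.88 in Dll1- cells, above Dll1 in the Dll1+ cells, and the points of Dll1+ and Dll1- cells are shifted slightly sideways to keep them apart.

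The start regions of Dll1 and Fam120b are shown because both genes were higher and lie head to head. RefSeq windows from 250 bases before to 50 bases after each start (GRCm38.p6) were searched on both strands for TGGGAA (the core that RBPJ binds), GGGCGG (a GC box), CCAAT and TATAAA, and matches are in capitals. The Dll1 windows are chr17:15375774-15376073 and chr17:15376883-15377182, both minus strand, and the Fam120b window is chr17:15395952-15396251, plus strand. The downstream Dll1 window holds CCAAT at 2 places, in both on the opposite strand, the upstream Dll1 window holds none of the 4 motifs, and the Fam120b window holds TGGGAA once, on the opposite strand, and GGGCGG once.
Dll1 downstream start: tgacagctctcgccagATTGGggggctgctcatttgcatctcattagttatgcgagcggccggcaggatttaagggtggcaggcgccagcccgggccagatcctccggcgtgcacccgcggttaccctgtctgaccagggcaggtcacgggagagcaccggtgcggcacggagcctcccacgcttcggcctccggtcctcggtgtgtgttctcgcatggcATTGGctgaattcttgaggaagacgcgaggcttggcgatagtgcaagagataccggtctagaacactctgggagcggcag
Dll1 upstream start: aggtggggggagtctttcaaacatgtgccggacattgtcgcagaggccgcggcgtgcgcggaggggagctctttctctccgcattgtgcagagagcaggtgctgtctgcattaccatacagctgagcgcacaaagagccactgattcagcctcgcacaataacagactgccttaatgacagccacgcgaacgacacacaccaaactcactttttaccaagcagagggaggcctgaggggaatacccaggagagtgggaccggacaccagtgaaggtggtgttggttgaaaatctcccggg
Fam120b: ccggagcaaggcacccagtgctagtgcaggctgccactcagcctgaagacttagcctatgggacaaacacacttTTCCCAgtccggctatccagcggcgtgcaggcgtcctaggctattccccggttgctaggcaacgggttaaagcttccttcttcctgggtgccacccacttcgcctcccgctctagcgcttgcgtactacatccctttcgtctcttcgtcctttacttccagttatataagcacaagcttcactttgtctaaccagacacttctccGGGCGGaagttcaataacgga
Among 32851 RefSeq promoter windows of this length 25.6% hold TGGGAA, 35.7% GGGCGG, 37.4% CCAAT and 13.6% TATAAA. A match is a description of the letters and no evidence of binding.

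The genes with the lowest p-values were led by basement membrane collagen. Col4a2 stood at 84.1 and 69.2 CPM in the GFP libraries and 408 and 399 CPM in the mCherry libraries (log2 fold change 2.39 ± 0.14, adjusted p = 0.00992). Its partner Col4a1, which forms the same triple helix, was at 132 and 113 CPM with GFP and 645 and 722 CPM with mCherry (log2 fold change 2.48 ± 0.15, adjusted p = 0.00992). Ckb, the brain-type creatine kinase, was at 30.6 and 27.9 CPM with GFP and 109 and 102 CPM with mCherry (log2 fold change 1.85 ± 0.11, adjusted p = 0.00992). Afap1, an actin filament and Src-binding protein, was lower at 108 and 101 CPM with GFP and 31.3 and 31.97 CPM with mCherry (log2 fold change -1.73 ± 0.11, adjusted p = 0.00992). The pairs of libraries did not overlap for any of these 4 genes, and within a pair the values differed by far less than the lines did. Genes picked for their low p are bound to look so, and most genes tested did not overlap either. Gm2223, annotated as a processed pseudogene, had 644 counts in the GFP libraries and 0 in the mCherry libraries. With a floor of 3 counts per library, its level was at least 166-fold lower with mCherry. Reads of a pseudogene can come from its parent or from copies, so this value is uncertain.

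Col4a1 and Col4a2 share one start region, from which they are transcribed in opposite directions, and its sequence is shown because both genes moved together. Their RefSeq windows, chr8:11312777-11313076 on the minus strand and chr8:11312555-11312854 on the plus strand (GRCm38.p6), overlap by 78 bases. The Col4a1 window holds GGGCGG once and CCAAT once, and the Col4a2 window holds GGGCGG 3 times and CCAAT once, matches of both strands again in capitals.
Col4a1: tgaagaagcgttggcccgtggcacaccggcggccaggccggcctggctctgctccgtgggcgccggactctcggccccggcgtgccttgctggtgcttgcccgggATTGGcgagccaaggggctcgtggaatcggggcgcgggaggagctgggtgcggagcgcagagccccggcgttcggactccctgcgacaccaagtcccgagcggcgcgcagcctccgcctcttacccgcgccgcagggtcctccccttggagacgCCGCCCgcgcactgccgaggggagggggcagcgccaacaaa
Col4a2: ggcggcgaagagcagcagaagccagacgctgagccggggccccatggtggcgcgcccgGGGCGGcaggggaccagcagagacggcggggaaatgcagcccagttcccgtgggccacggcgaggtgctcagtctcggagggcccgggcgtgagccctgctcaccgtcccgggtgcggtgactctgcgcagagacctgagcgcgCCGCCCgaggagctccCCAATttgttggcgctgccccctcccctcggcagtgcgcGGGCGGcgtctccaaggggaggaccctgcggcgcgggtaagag
Their GC content is 74% and 73.7%. Neither window holds TGGGAA or TATAAA.

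Among the named genes, taken from those averaging 1 CPM or more, the largest higher values belonged to immunoglobulin, contractile and milk genes. Igha, the constant region of IgA, had 0 counts in both GFP libraries and 1.12 and 3.98 CPM in the mCherry libraries, which is at least 24.1-fold higher (adjusted p = 0.029). Igkc, the kappa light chain constant region, had 3 counts with GFP and 279 with mCherry, a ratio of 55.9 (95% counting interval 18.9 to 273, adjusted p = 0.016). Actg2, smooth muscle gamma actin, was at 0.458 and 0.178 CPM with GFP and 19.98 and 10.7 CPM with mCherry (log2 fold change 5.67 ± 0.56, adjusted p = 0.0108). The plasma cell genes Igha and Igkc were low in every Dll1+ library and close to absent in GFP Dll1+ cells. In Dll1- cells Igha was at 2.30 and 3.04 CPM with GFP and 0.2215 and 14.3 CPM with mCherry. It was not called there (log2 fold change 1.395 ± 1.655, adjusted p = 0.555). The Igha call in Dll1+ cells was lost with all 8 libraries in one fit. Cnn1, calponin, was at 2.25 and 0.999 CPM with GFP and 59.3 and 13.7 CPM with mCherry (log2 fold change 4.53 ± 0.91, adjusted p = 0.0324). Krt17, a basal keratin, was at 20.95 and 14.6 CPM with GFP and 119 and 517 CPM with mCherry (log2 fold change 4.16 ± 0.81, adjusted p = 0.0302). Both mCherry libraries were above both GFP libraries for Cnn1 and Krt17, as the rule for naming these genes required. The mCherry libraries differed from each other more than 4-fold for both genes. Csn2, beta-casein, was at 0.740 and 1.71 CPM with GFP and 44.2 and 65.7 CPM with mCherry (log2 fold change 5.42 ± 0.46, adjusted p = 0.0106). Slc16a3, the lactate exporter MCT4, was at 1.23 and 0.843 CPM with GFP and 10.6 and 23.4 CPM with mCherry (log2 fold change 4.05 ± 0.49, adjusted p = 0.0134). The others of this group of 12 were Wnt10a, Tslp, Retnla, Glycam1 and Apobec2, with log2 fold changes of 4.86, 4.42, 4.26, 4.25 and 4.09. The Cnn1, Tslp and Glycam1 calls were lost with limma voom.

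The 12 lowest held several genes that have near-identical copies. Rab11b-ps2, a pseudogene, had 406 counts with GFP and 0 with mCherry, at least 115-fold lower (adjusted p = 0.0124). S100g, the calcium-binding protein calbindin-D9k, was at 6.902 and 4.39 CPM with GFP and 0.306 and 0.775 CPM with mCherry (log2 fold change -3.39 ± 0.53, adjusted p = 0.0168). Xist, the long noncoding RNA that coats the inactive X chromosome, was at 1572 and 2074 CPM with GFP and 401 and 400 CPM with mCherry (log2 fold change -2.20 ± 0.19, adjusted p = 0.00992). Xist was detected in all 4 libraries and the GFP pair lay above the mCherry pair. Ptp4a1, a prenylated tyrosine phosphatase listed under 2 gene identifiers, was at 129 and 145 CPM with GFP and 34.8 and 25.3 CPM with mCherry (log2 fold change -2.19 ± 0.19, adjusted p = 0.00992) for the identifier that the rule picked by its log2 fold change. The other Ptp4a1 identifier, which covers the same locus, was at 458 and 462 CPM with GFP and 411 and 409 CPM with mCherry and was not called (log2 fold change -0.17 ± 0.12, adjusted p = 0.334). Dynlt1c, one of several nearly identical dynein light chain copies, was at 6.97 and 9.28 CPM with GFP and 0.810 and 1.25 CPM with mCherry (log2 fold change -2.99 ± 0.34, adjusted p = 0.0116). For these 2 genes, and for Olfr839-ps1, Olfr365, Vmn1r18 and Slfn10-ps, whose log2 fold changes ran from -2.62 to -2.19, reads shared with copies make the values uncertain. Gdap10, Insrr and Tmem45b completed the group, at -2.99, -2.48 and -2.16. Neat1 and Malat1, nuclear RNAs chosen after their values were seen, were also lower. Neat1, the scaffold of paraspeckles, was at 1861 and 2370 CPM with GFP and 605 and 671 CPM with mCherry (log2 fold change -1.74 ± 0.19, adjusted p = 0.0107). Malat1, a nuclear speckle RNA, was at 718 and 796 CPM with GFP and 292 and 335 CPM with mCherry (log2 fold change -1.28 ± 0.15, adjusted p = 0.0118).

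**Figure D2:**
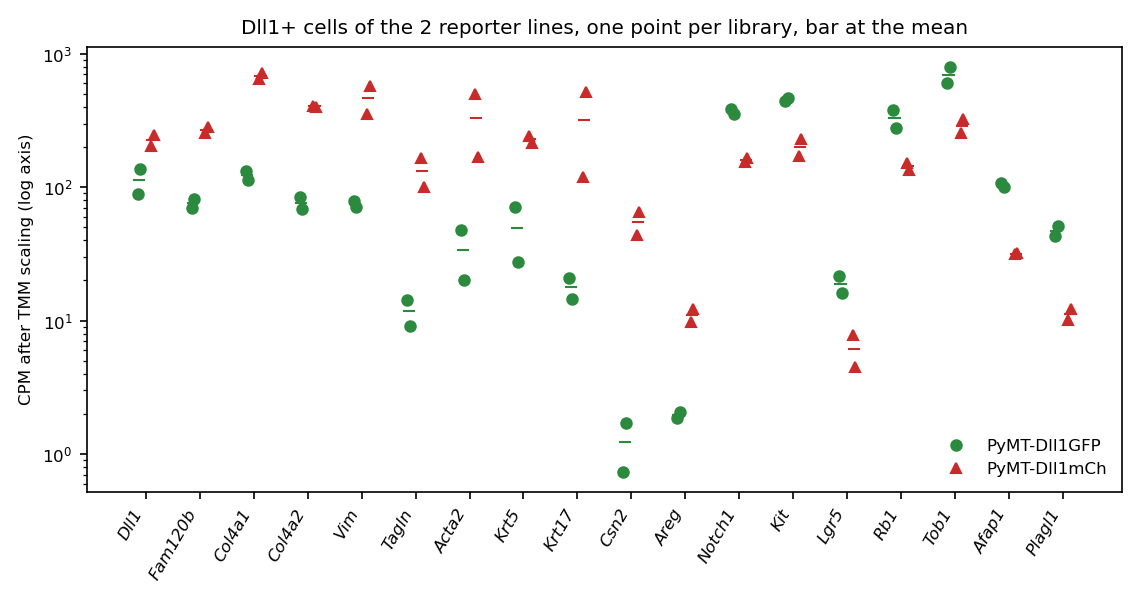
CPM in each of the 4 Dll1+ libraries on a log axis for genes of the report, GFP and mCherry libraries in separate colours, 1 point a library and a bar at the mean. Col4a1 and Col4a2 are separated by line with close pairs, whereas the 2 mCherry libraries lie apart for Krt17 and Acta2.

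The Notch pathway was described by its roles. Among ligands and receptors 1 of 8 genes tested was higher and 3 lower, with a median log2 fold change of -0.43. Notch1 was at 385 and 354 CPM with GFP and 155 and 166 CPM with mCherry (log2 fold change -1.21 ± 0.12, adjusted p = 0.01). Notch2 was at 75.9 and 66.4 CPM with GFP and 48.7 and 41.6 CPM with mCherry (log2 fold change -0.66 ± 0.13, adjusted p = 0.0248). Notch3 was at 164 and 158 CPM with GFP and 110.3 and 100.3 CPM with mCherry (log2 fold change -0.62 ± 0.11, adjusted p = 0.021). These 3 receptors were lower in both mCherry libraries, whereas the ligand Dll1 was higher. After the offset for GC content and transcript length Notch2 lost its call. Notch4 was not called, at 16.4 and 11.01 CPM with GFP and 11.4 and 9.25 CPM with mCherry (log2 fold change -0.41 ± 0.24, adjusted p = 0.253). The ligand Jag1 was at 13.7 and 8.32 CPM with GFP and 53.7 and 17.5 CPM with mCherry (log2 fold change 1.70 ± 0.60, adjusted p = 0.105). Jag2 was at 20.4 and 10.1 CPM with GFP and 36.8 and 21.3 CPM with mCherry (log2 fold change 0.93 ± 0.42, adjusted p = 0.169), and neither was called. Dll4, which is known from endothelial tip cells, was at 12.5 and 11.7 CPM with GFP and 9.58 and 8.28 CPM with mCherry (log2 fold change -0.45 ± 0.17, adjusted p = 0.112). Dll3 did not pass the filter on low counts. In Dll1- cells Notch1 (-1.31 ± 0.12, adjusted p = 0.0152) and Notch2 (-0.72 ± 0.18, adjusted p = 0.0459) were lower too, and Notch3 was not called (-0.058 ± 0.12, adjusted p = 0.733).

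Of 20 genes that process or modify the pathway, 4 were higher and 4 lower (median -0.041), and 2 and 2 after the GC and length offset. Psenen, a small subunit of gamma-secretase, was at 40.8 and 38.8 CPM with GFP and 66.6 and 62.9 CPM with mCherry (log2 fold change 0.70 ± 0.11, adjusted p = 0.0163). Mib1, the ubiquitin ligase that lets ligands be internalised, was at 105 and 109 CPM with GFP and 70.7 and 69.1 CPM with mCherry (log2 fold change -0.62 ± 0.11, adjusted p = 0.0187). The coactivator Maml2 was at 36.9 and 33.2 CPM with GFP and 21.9 and 21.1 CPM with mCherry (log2 fold change -0.71 ± 0.12, adjusted p = 0.0187). The calls of these 3 were lost after that offset. The other higher members were Numbl, Mfng, a Fringe glycosyltransferase, and Dlk1, a noncanonical ligand at up to 1.09 CPM, and the other lower members were Numb, an inhibitor of Notch, and Maml3. Of 14 target genes, 3 were higher and 1 lower (median -0.13). Heyl, a target of Notch3 in mural cells, was at 1.34 and 1.02 CPM with GFP and 6.17 and 5.81 CPM with mCherry (log2 fold change 2.35 ± 0.27, adjusted p = 0.0117). Id3, an inhibitor of basic helix-loop-helix factors, was at 10.1 and 7.68 CPM with GFP and 40.97 and 45.6 CPM with mCherry (log2 fold change 2.28 ± 0.17, adjusted p = 0.00992). Nrarp, a feedback regulator of the pathway, was also higher (log2 fold change 1.07 ± 0.26, adjusted p = 0.0389). Bcl2, the survival gene, was lower at 88.5 and 84.2 CPM with GFP and 37.9 and 44.5 CPM with mCherry (log2 fold change -1.07 ± 0.13, adjusted p = 0.0118). Hes1, a classical target named after its values were seen, was at 163 and 126 CPM with GFP and 113 and 126 CPM with mCherry (log2 fold change -0.28 ± 0.15, adjusted p = 0.222). Hey1, named likewise, was at 257 and 288 CPM with GFP and 204 and 120.4 CPM with mCherry (log2 fold change -0.76 ± 0.27, adjusted p = 0.0968). Neither was called. The called targets moved in both directions, beside 11.6% higher and 12.6% lower of all genes tested. With so few called, they are described singly, and Hes1 and Hey1 showed no call.

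Epithelial markers differed most in the basal compartment. Of 19 basal and myoepithelial markers 8 were higher and 1 lower, with a median log2 fold change of 1.92, and 5 higher and 0 lower after the GC and length offset. Their summed level was 1427 and 1036 CPM with GFP and 2554 and 2527 CPM with mCherry. The contractile genes stood out: Tagln, transgelin, was at 14.3 and 9.19 CPM with GFP and 167 and 99.7 CPM with mCherry (log2 fold change 3.51 ± 0.36, adjusted p = 0.0122). Myh11, smooth muscle myosin, was at 8.66 and 3.995 CPM with GFP and 89.01 and 34.1 CPM with mCherry (log2 fold change 3.30 ± 0.63, adjusted p = 0.0296). Acta2, smooth muscle actin, was at 47.9 and 20.2 CPM with GFP and 497 and 168 CPM with mCherry (log2 fold change 3.29 ± 0.71, adjusted p = 0.0375). All of these are also expressed by pericytes and smooth muscle. The Acta2 call was kept in 9 of 14 alternatives. Krt5, a basal keratin, was higher (log2 fold change 2.22 ± 0.46, adjusted p = 0.0335). The Krt5 call was kept in 8 of 14 alternatives and lost with the GC and length offset, among others. Its log2 fold change stayed positive in all of them, from 1.70 to 3.02. Krt14, its partner, was not called at 175 and 96.96 CPM with GFP and 247 and 469 CPM with mCherry (log2 fold change 1.40 ± 0.42, adjusted p = 0.0752). Trp63, which encodes the basal regulator p63, went the other way, at 53.5 and 39.97 CPM with GFP and 27.3 and 31.4 CPM with mCherry (log2 fold change -0.67 ± 0.17, adjusted p = 0.0421). The Trp63 call was lost with upper-quartile scaling, limma voom, the GC and length offset, all 8 libraries in one fit and the replicate block. Its log2 fold change stayed negative in every alternative, from -0.85 to -0.36. By the sign of the log2 fold change, basal keratins, contractile genes and p63 thus did not move as one. Without a filter on low counts 3 of the 19 were called higher.

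Of 13 luminal markers edgeR called 0 higher (1 at an unadjusted p under 0.05, 2 with DESeq2 and 0 with limma voom) and 2 lower (median 0.20), and without mCherry replicate 1, 6 were higher. Beside each list of this paragraph, 11.6% of all genes tested were higher and 12.6% lower, and members are described singly. Ehf, an epithelial Ets factor, was at 780.4 and 761 CPM with GFP and 506 and 469.8 CPM with mCherry (log2 fold change -0.67 ± 0.13, adjusted p = 0.0235). Muc1, the apical mucin, was at 216 and 198 CPM with GFP and 144 and 127 CPM with mCherry (log2 fold change -0.62 ± 0.12, adjusted p = 0.0243). Krt8 and Krt18, the luminal keratins, were at 2683 and 2386 CPM with GFP and 2290 and 3557 CPM with mCherry and at 1385 and 1471 CPM with GFP and 1431 and 2164 CPM with mCherry, with mCherry replicate 2 highest for both. Neither was called. Of 9 luminal progenitor markers edgeR called 0 higher (1 at an unadjusted p under 0.05, 1 with DESeq2 and 0 with limma voom) and 2 lower (median -0.034). Kit, the stem cell factor receptor, was at 440.1 and 467 CPM with GFP and 172 and 229 CPM with mCherry (log2 fold change -1.19 ± 0.18, adjusted p = 0.0154), and the integrin Itga2 was just called (log2 fold change -0.91 ± 0.25, adjusted p = 0.0497), a call that 11 of 14 alternatives lost. Of 9 hormone-sensing markers 2 were higher and 2 lower (median 0.47). Areg, the amphiregulin that relays estrogen signals, was at 1.87 and 2.06 CPM with GFP and 9.701 and 12.3 CPM with mCherry (log2 fold change 2.47 ± 0.24, adjusted p = 0.00992). Wnt4, its progesterone counterpart, was at 1.62 and 1.15 CPM with GFP and 6.97 and 2.96 CPM with mCherry (log2 fold change 1.84 ± 0.49, adjusted p = 0.047). Prlr, the prolactin receptor (log2 fold change -0.87 ± 0.18, adjusted p = 0.0268), and Esr1, the estrogen receptor (log2 fold change -0.78 ± 0.21, adjusted p = 0.048), were lower. After the GC and length offset 1 gene of the list was higher and 0 lower: Wnt4, Prlr and Esr1 lost their calls, with Prlr at a log2 fold change of -0.15.

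Milk and secretory genes were 5 higher and 2 lower of 14 (median 0.96). Besides Csn2, Csn1s1 and Glycam1, Csn1s2a, another casein, was at 1.76 and 1.35 CPM with GFP and 18.6 and 24.2 CPM with mCherry (log2 fold change 3.79 ± 0.25, adjusted p = 0.00992). Cel, the bile salt-stimulated lipase of milk, was at 4.61 and 3.28 CPM with GFP and 15.8 and 12.6 CPM with mCherry (log2 fold change 1.85 ± 0.25, adjusted p = 0.0132). Muc15 (log2 fold change -1.30 ± 0.23, adjusted p = 0.0213) and Xdh, xanthine dehydrogenase of the milk fat globule (log2 fold change -0.88 ± 0.23, adjusted p = 0.047), were the lower ones. Lalba, alpha-lactalbumin, spread within each line and was not called, at 867 and 475 CPM with GFP and 312 and 511 CPM with mCherry. After the GC and length offset 5 genes of the list were higher and 0 lower, and Muc15 and Xdh lost their calls. The caseins named were higher in both mCherry libraries, whereas the summed level of the list was lower there, at 14660 and 14760 CPM with GFP and 10190 and 11230 CPM with mCherry.

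Markers of the cell types that the sort was meant to remove, or did not target, were higher in the mCherry line. Of 14 fibroblast markers 12 were higher and 0 lower, with 14 and 0 at an unadjusted p under 0.05 (median 1.59), with summed levels of 1393 and 1433 CPM with GFP and 4140 and 4175 CPM with mCherry. Col1a1, the main chain of type I collagen, was at 365 and 406 CPM with GFP and 1159 and 1189 CPM with mCherry (log2 fold change 1.60 ± 0.14, adjusted p = 0.00992). Pdpn, podoplanin, was at 3.63 and 2.996 CPM with GFP and 23.2 and 30.5 CPM with mCherry (log2 fold change 3.02 ± 0.22, adjusted p = 0.00992). Thy1 was at 5.18 and 5.88 CPM with GFP and 26.7 and 25.7 CPM with mCherry (log2 fold change 2.23 ± 0.16, adjusted p = 0.00992). Fibroblast transcripts were present in all 4 libraries and were higher in the mCherry pair, without overlap in their sum. No antibody of the sort was directed at fibroblasts. For this and each later marker or pathway list given with 0 lower genes, 0 were lower at an unadjusted p under 0.05 and with DESeq2 and limma voom, except for hypoxia-induced genes (2 at an unadjusted p under 0.05, 2 with DESeq2 and 1 with limma voom), glycolysis genes (1 at an unadjusted p under 0.05) and matrix genes (1 at an unadjusted p under 0.05 and 1 with DESeq2).

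Of 16 macrophage and myeloid markers 12 were higher and 0 lower (median 1.49), summing to 198 and 186 CPM with GFP and 538 and 482 CPM with mCherry. The complement chains C1qa, C1qb and C1qc gave log2 fold changes of 1.56 ± 0.14, 1.53 ± 0.14 and 1.45 ± 0.14, each with an adjusted p of 0.00992. Lyz2, lysozyme, was at 47.96 and 37.9 CPM with GFP and 95.3 and 103 CPM with mCherry (log2 fold change 1.20 ± 0.14, adjusted p = 0.0118). Of 12 endothelial markers 7 were higher and 0 lower (median 0.96), summing to 97.96 and 92.4 CPM and 188 and 191 CPM. Plvap, of fenestrated vessels, was at 14.4 and 15.9 CPM with GFP and 38.03 and 42.98 CPM with mCherry (log2 fold change 1.41 ± 0.14, adjusted p = 0.01). Eng, endoglin, was at 12.04 and 12.1 CPM with GFP and 29.7 and 29.6 CPM with mCherry (log2 fold change 1.29 ± 0.13, adjusted p = 0.00996). Kdr, the VEGF receptor, was not called (log2 fold change 0.55 ± 0.20, adjusted p = 0.0991). Of 11 lymphocyte markers tested 3 were higher and 0 lower, among them the B cell receptor genes Cd79a and Cd79b at under 1 CPM, and the T cell marker Cd3e was at 0.211 and 0.133 CPM with GFP and 0.229 and 0.317 CPM with mCherry. These calls were lost after the GC and length offset, and the summed lymphocyte level was only 1.97 and 1.49 CPM with GFP and 4.87 and 4.74 CPM with mCherry.

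Of 11 pericyte markers 6 were higher and 1 lower (median 1.70), but the sum did not separate the lines, at 275 and 279.8 CPM and 303 and 264 CPM, because Notch3, itself on the list and lower, made up 164 and 158 CPM of the GFP and 110.3 and 100.3 CPM of the mCherry sums. Rgs5, a pericyte regulator of G protein signalling, was at 11.2 and 9.94 CPM with GFP and 34.5 and 34.8 CPM with mCherry (log2 fold change 1.71 ± 0.13, adjusted p = 0.00992). Of 8 erythroid, muscle and fat markers tested 5 were higher and 0 lower (median 1.99), namely the globins Hbb-bs, Hbb-bt, Hba-a1 and Hba-a2 and the fatty acid carrier Fabp4. Hbb-bs was at 1.94 and 3.53 CPM with GFP and 24.98 and 14.3 CPM with mCherry (log2 fold change 2.82 ± 0.43, adjusted p = 0.0176), and Hba-a1, which has a near-identical copy, had a log2 fold change of 2.98 ± 0.54. Of the 15 genes on that list 3 were at 0 in both GFP libraries. The markers of several unrelated cell types were higher together in both mCherry libraries, and their part in the other differences was not tested.

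**Figure D3:**
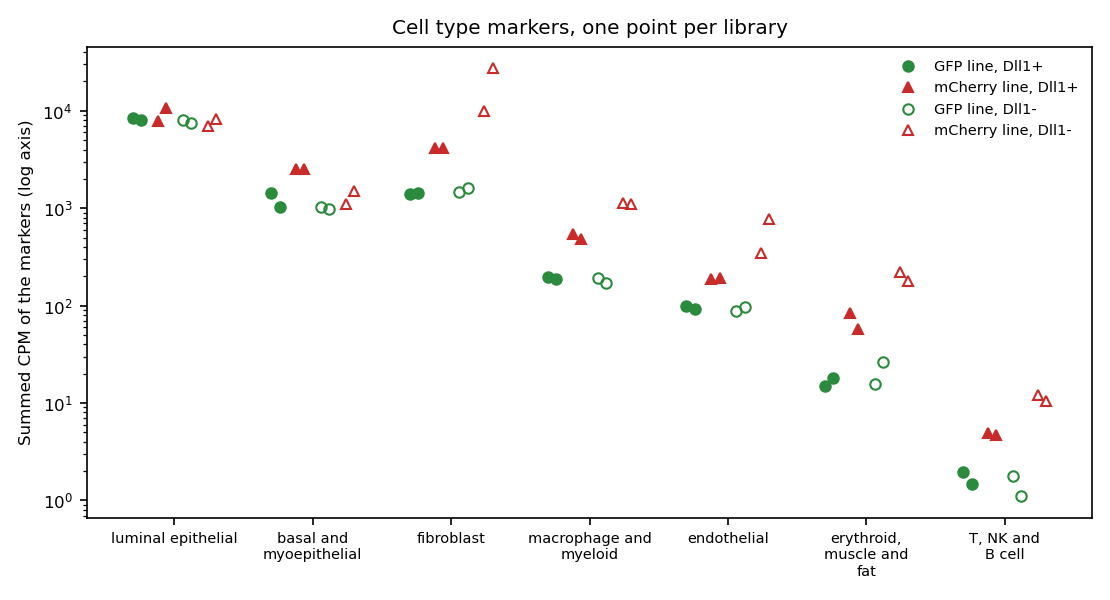
Summed CPM of 7 marker lists in each of the 8 libraries on a log axis, by line and by side of the sort. In Dll1+ cells the fibroblast sum lies at 1393 to 1433 CPM with GFP and at 4140 to 4175 CPM with mCherry, and in Dll1- cells it reaches 27220 CPM in 1 mCherry library.

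Extracellular matrix genes moved with the fibroblast markers. Of 22 collagen and matrix genes 16 were higher and 0 lower (median 1.54). Besides Col4a1 and Col4a2, Col6a2 was at 57.3 and 54.4 CPM with GFP and 197 and 184 CPM with mCherry (log2 fold change 1.77 ± 0.11, adjusted p = 0.00992). Bgn, the proteoglycan biglycan, was at 104 and 121 CPM with GFP and 459.5 and 445 CPM with mCherry (log2 fold change 1.999 ± 0.14, adjusted p = 0.00992). Sparc was at 202 and 177 CPM with GFP and 1016 and 682 CPM with mCherry (log2 fold change 2.16 ± 0.22, adjusted p = 0.0106). The fibroblast genes Col1a1, Col1a2 and Col3a1 had log2 fold changes of 1.60, 1.58 and 1.42, smaller than those of Col4a1 and Col4a2.

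Of 18 metalloproteases and inhibitors 7 were higher and 1 lower (median 1.63). Timp1 was at 7.11 and 6.66 CPM with GFP and 20.2 and 23.4 CPM with mCherry (log2 fold change 1.66 ± 0.16, adjusted p = 0.00996). Mmp9, gelatinase B, was at 0.387 and 0.710 CPM with GFP and 1.62 and 2.41 CPM with mCherry (log2 fold change 1.83 ± 0.45, adjusted p = 0.0384). The lower one was Mmp15, a membrane-bound protease (log2 fold change -0.66 ± 0.12, adjusted p = 0.0207). Without mCherry replicate 1, 14 of the 18 were higher. Of 17 regulators of epithelial-mesenchymal transition and cadherins 5 were higher and 1 lower (median 0.63). Vim, vimentin, was at 78.3 and 70.9 CPM with GFP and 356 and 569 CPM with mCherry (log2 fold change 2.63 ± 0.25, adjusted p = 0.0106). Prrx1, a mesenchymal homeobox factor, was at 2.71 and 2.95 CPM with GFP and 9.67 and 12.2 CPM with mCherry (log2 fold change 1.94 ± 0.23, adjusted p = 0.0118). Cdh11, the fibroblast cadherin, was at 6.16 and 5.903 CPM with GFP and 16.9 and 15.1 CPM with mCherry (log2 fold change 1.40 ± 0.17, adjusted p = 0.0119). Fn1, fibronectin, and Twist1 were the other higher members, and Grhl2, an epithelial regulator, was lower (log2 fold change -0.46 ± 0.11, adjusted p = 0.0343). Cdh1, E-cadherin, was at 491 and 511 CPM with GFP and 460.3 and 504 CPM with mCherry and was not called, and neither was the transition factor Zeb1 at 2.54 and 2.49 CPM with GFP and 6.798 and 3.68 CPM with mCherry. Vim, Prrx1 and Cdh11 are all expressed by fibroblasts, whose markers moved with them.

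Antigen presentation split by class. Of 7 MHC class II genes 5 were higher and 0 lower (median 1.79). Cd74, the invariant chain, was at 50.2 and 57.8 CPM with GFP and 217 and 168 CPM with mCherry (log2 fold change 1.82 ± 0.17, adjusted p = 0.00992), and H2-Ab1 and H2-Aa gave 1.79 ± 0.17 and 1.80 ± 0.19, beside H2-Eb1 and H2-DMa. These are known chiefly from macrophages, dendritic cells and B cells. Of 14 MHC class I genes 0 were called in either direction with edgeR, 0 of them at an unadjusted p under 0.05, and 0 with limma voom, whereas DESeq2 called 1 higher (median 0.41), where B2m was at 249 and 238 CPM with GFP and 638 and 287 CPM with mCherry (log2 fold change 0.92 ± 0.39, adjusted p = 0.149) and mCherry replicate 1 stood far above the other 3 libraries. Without mCherry replicate 2, 11 of the 14 were called higher, and without mCherry replicate 1, 2 were called lower. The class I result was thus decided by which mCherry library was kept.

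Of 23 interferon-stimulated genes 3 were higher and 2 lower (median -0.066), beside 11.6% higher and 12.6% lower of all genes tested. Cxcl10, an interferon-induced chemokine, was at 1.73 and 1.71 CPM with GFP and 5.897 and 5.62 CPM with mCherry (log2 fold change 1.74 ± 0.24, adjusted p = 0.014). Bst2, tetherin, was at 31.1 and 32.8 CPM with GFP and 65.04 and 52.2 CPM with mCherry (log2 fold change 0.87 ± 0.15, adjusted p = 0.0184). Irf1 was lower at 398 and 494 CPM with GFP and 223 and 207 CPM with mCherry (log2 fold change -1.06 ± 0.16, adjusted p = 0.0156). Isg15 was the other higher member and Ddx58, which encodes RIG-I, the other lower one. Without mCherry replicate 1, 10 of the 23 were lower. Genes of the NF-kB pathway, which the study followed in Dll1+ cells, were 3 higher and 3 lower of 26 (median 0.17). These shares were near the 11.6% and 12.6% of all genes tested, so the members below are described singly. Il6 was at 1.83 and 1.66 CPM with GFP and 9.92 and 9.53 CPM with mCherry (log2 fold change 2.47 ± 0.22, adjusted p = 0.00992). Il1b was at 3.803 and 4.68 CPM with GFP and 9.79 and 11.6 CPM with mCherry (log2 fold change 1.32 ± 0.23, adjusted p = 0.0185). Tnf was lower at 111 and 129 CPM with GFP and 59.3 and 82.4 CPM with mCherry (log2 fold change -0.77 ± 0.19, adjusted p = 0.0431). Nfkbiz, of the inhibitor family, was also lower at 665 and 695 CPM with GFP and 238 and 396 CPM with mCherry (log2 fold change -1.11 ± 0.26, adjusted p = 0.0377). Nfkbib was the other higher and Birc3 the other lower member, both inhibitors in the pathway or of cell death. The subunits Nfkb1 and Rela were not called, at 127 and 120.1 CPM with GFP and 103 and 98.8 CPM with mCherry and at 132 and 155 CPM with GFP and 122 and 184 CPM with mCherry. The chemokine gene Cxcl1 ranged widely, at 314 and 498 CPM with GFP and 125 and 502 CPM with mCherry (log2 fold change -0.38 ± 0.69, adjusted p = 0.709), with mCherry replicate 1 lowest and mCherry replicate 2 highest. Without mCherry replicate 1 the list held 7 higher and 4 lower genes, and without replicate 2, 5 higher and 7 lower.

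Immediate-early genes are switched on within minutes of stimulation and also by tissue digestion. Of 23 such genes 1 was higher and 5 lower (median -0.50), 10 lower after the GC and length offset and 13 lower without mCherry replicate 2. Zfp36, an mRNA decay factor, was at 4481 and 5089 CPM with GFP and 2862 and 3030 CPM with mCherry (log2 fold change -0.71 ± 0.16, adjusted p = 0.0311). Jun was at 3089 and 3073 CPM with GFP and 1929 and 2159 CPM with mCherry (log2 fold change -0.60 ± 0.15, adjusted p = 0.0391). The heat shock gene Hsph1 was at 377 and 306 CPM with GFP and 165 and 211 CPM with mCherry (log2 fold change -0.86 ± 0.18, adjusted p = 0.0254). Btg2 and Dusp1 were the other lower members. Klf2 was the higher one, at 33.1 and 33.8 CPM with GFP and 77.96 and 100.1 CPM with mCherry (log2 fold change 1.41 ± 0.16, adjusted p = 0.0112). Fos was not called, at 7167 and 7769 CPM with GFP and 5478 and 5635 CPM with mCherry (log2 fold change -0.43 ± 0.15, adjusted p = 0.0893). The summed level of the list was 46020 and 44710 CPM with GFP and 29020 and 34000 CPM with mCherry, so these transcripts were abundant in all 4 libraries and lower in the mCherry pair.

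Cell cycle genes were higher in mCherry Dll1+ cells almost throughout. Of 22 G2/M genes 20 were higher and 0 lower (median 1.09), with sums of 303 and 298 CPM with GFP and 561 and 617 CPM with mCherry, and 20 were also higher after the offset for GC content and length. Ube2c, the ubiquitin-conjugating enzyme of the anaphase-promoting complex, was at 10.3 and 8.99 CPM with GFP and 28.6 and 31.7 CPM with mCherry (log2 fold change 1.65 ± 0.15, adjusted p = 0.00992). Cdc20, an activator of that complex, was at 13.6 and 12.96 CPM with GFP and 34.3 and 32.1 CPM with mCherry (log2 fold change 1.32 ± 0.13, adjusted p = 0.00992). Ccnb2, a mitotic cyclin, was at 7.47 and 7.08 CPM with GFP and 24.3 and 20.2 CPM with mCherry (log2 fold change 1.61 ± 0.17, adjusted p = 0.0106). The values of a pair were close and the pairs far apart for all 3, which were picked from the list by their low p. Mki67, which encodes Ki-67, was at 59.9 and 57.7 CPM with GFP and 89.7 and 84.5 CPM with mCherry (log2 fold change 0.56 ± 0.11, adjusted p = 0.022). Top2a, topoisomerase II, was not called at 49.3 and 52.3 CPM with GFP and 60.2 and 99.7 CPM with mCherry (log2 fold change 0.65 ± 0.25, adjusted p = 0.121). Of 20 S phase genes 16 were higher and 0 lower (median 0.76), among them the replicative helicase subunit Mcm5 at 21.8 and 23.7 CPM with GFP and 49.7 and 53.7 CPM with mCherry (log2 fold change 1.18 ± 0.13, adjusted p = 0.0107), the flap endonuclease Fen1 (log2 fold change 0.997 ± 0.12, adjusted p = 0.0118) and Uhrf1, which recruits the maintenance DNA methyltransferase (log2 fold change 0.97 ± 0.13, adjusted p = 0.0129). Dll1- libraries of either line had higher sums for both lists than Dll1+ libraries of the same line.

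CDK inhibitors and quiescence genes were 2 higher and 6 lower of 16 (median -0.34). Cdkn1b, p27, was at 133 and 129 CPM with GFP and 80.4 and 69.1 CPM with mCherry (log2 fold change -0.82 ± 0.12, adjusted p = 0.0153). Rb1, the retinoblastoma gene, was at 379.7 and 276 CPM with GFP and 153 and 135 CPM with mCherry (log2 fold change -1.19 ± 0.18, adjusted p = 0.0154). Its relative Rbl2 was at 51.2 and 51.6 CPM with GFP and 31.6 and 31.7 CPM with mCherry (log2 fold change -0.71 ± 0.11, adjusted p = 0.0161). Tob1, an antiproliferative gene of the Tob/BTG family, was at 604 and 792 CPM with GFP and 253 and 322 CPM with mCherry (log2 fold change -1.29 ± 0.21, adjusted p = 0.0172), and its relatives Tob2 and Btg2 were lower as well. Cdkn2c, p18, and Cdkn1c, p57, were higher. Cdkn1a, p21, was not called, at 135 and 229 CPM with GFP and 134 and 125 CPM with mCherry, where GFP replicate 2 stood above the other 3. After the GC and length offset 0 were higher and 5 lower.

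Most ribosomal protein and nuclear-encoded respiratory chain genes were higher, and since these transcripts are short, the counts after the GC and length offset are given beside them. Of 28 cytosolic ribosomal protein genes 27 were higher and 0 lower (median 0.85), and 14 with a median of 0.56 after the offset. Rpl8 was at 498 and 529 CPM with GFP and 1069 and 1014 CPM with mCherry (log2 fold change 1.01 ± 0.14, adjusted p = 0.0135). Rps6 was at 204 and 212 CPM with GFP and 390.4 and 399 CPM with mCherry (log2 fold change 0.92 ± 0.12, adjusted p = 0.013). Rps23 was at 91.3 and 95.1 CPM with GFP and 180.1 and 190.4 CPM with mCherry (log2 fold change 0.99 ± 0.11, adjusted p = 0.0116). Many processed pseudogenes resemble these genes. Of 22 nuclear-encoded respiratory chain subunits 18 were higher and 0 lower (median 0.69), and 13 after the offset, with Cox4i1, of cytochrome c oxidase, at 195 and 196 CPM with GFP and 333 and 322 CPM with mCherry (log2 fold change 0.74 ± 0.11, adjusted p = 0.0159), Ndufs6, of complex I (log2 fold change 0.90 ± 0.14, adjusted p = 0.0155), and Atp5e, of the ATP synthase (log2 fold change 1.03 ± 0.15, adjusted p = 0.0145). Of the 13 mitochondrially encoded genes 2 were higher and 1 lower (median 0.41), beside 11.6% and 12.6% of all genes tested. Among them mt-Co3 was at 2582 and 4224 CPM with GFP and 10060 and 7026 CPM with mCherry (log2 fold change 1.32 ± 0.32, adjusted p = 0.0399). mt-Nd4l was at 464 and 417 CPM with GFP and 319 and 229 CPM with mCherry (log2 fold change -0.69 ± 0.19, adjusted p = 0.0498). The 2 mCherry libraries lay apart for these. After the offset 2 were higher and 0 lower, so that mt-Nd4l lost its call, and 6 were higher without mCherry replicate 2.

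Of 18 glycolysis genes 7 were higher and 0 lower (median 0.57), and 4 after the offset. Pgk1 was at 148 and 133 CPM with GFP and 266 and 348 CPM with mCherry (log2 fold change 1.13 ± 0.17, adjusted p = 0.0153). Pgam1 was at 113 and 119 CPM with GFP and 225 and 227 CPM with mCherry (log2 fold change 0.96 ± 0.11, adjusted p = 0.0118). Gapdh, often used as a reference gene, was at 263 and 380 CPM with GFP and 691 and 638 CPM with mCherry (log2 fold change 1.04 ± 0.21, adjusted p = 0.0263). Gapdh also has many pseudogene copies. Of 20 hypoxia-induced genes 4 were higher and 0 lower (median 0.48), among them Bnip3, of mitophagy (log2 fold change 0.74 ± 0.14, adjusted p = 0.0222), Egln1, an oxygen sensor (log2 fold change 0.59 ± 0.15, adjusted p = 0.0425), and Lox, which crosslinks collagen (log2 fold change 1.495 ± 0.22, adjusted p = 0.0154), and Ankrd37 was the fourth. Without mCherry replicate 1, 10 were higher. With limma voom and with the GC and length offset the list held 2 higher genes and 1 lower gene each, and Egln1 and Ankrd37 lost their calls in both. Vegfa was not called, at 143 and 151 CPM with GFP and 155 and 268 CPM with mCherry.

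Of 20 genes of cholesterol and fatty acid synthesis 6 were higher and 2 lower (median 0.21), and 2 and 1 after the offset. Mvd, of the mevalonate pathway, was at 9.44 and 8.61 CPM with GFP and 21.97 and 18.3 CPM with mCherry (log2 fold change 1.16 ± 0.17, adjusted p = 0.0147), and Fdft1, squalene synthase, gave 0.66 ± 0.13. Lss, lanosterol synthase, and Scd1, the fatty acid desaturase, were the lower ones. Of 17 genes of the integrated stress and unfolded protein responses 2 were higher and 1 lower (median 0.035), beside 11.6% and 12.6% of all genes tested. They were Trib3 (log2 fold change 0.58 ± 0.14, adjusted p = 0.0388), Psat1, of serine synthesis (log2 fold change 0.85 ± 0.21, adjusted p = 0.0421), and, lower, Dnajb9, a chaperone of the endoplasmic reticulum (log2 fold change -0.67 ± 0.18, adjusted p = 0.0447). After the offset Trib3, Psat1 and Dnajb9 all lost their calls, and the list held 0 higher genes and 1 lower gene. The calls of Trib3 and Dnajb9 were also lost with limma voom. Of 16 replication-dependent histone genes tested 3 were higher and 1 lower (median 0.46), beside 11.6% and 12.6% of all genes tested. Hist1h1c, a linker histone, was at 169.5 and 183 CPM with GFP and 328 and 356 CPM with mCherry (log2 fold change 0.95 ± 0.13, adjusted p = 0.0134). The other higher members were Hist1h2ac (log2 fold change 1.28 ± 0.28, adjusted p = 0.0291) and Hist1h2ae (log2 fold change 1.60 ± 0.42, adjusted p = 0.0444). Hist2h4 was lower (log2 fold change -2.11 ± 0.41, adjusted p = 0.0231). The Hist1h2ae call was kept in 5 of 13 alternatives and was lost with DESeq2 and limma voom, among others. Most transcripts of replication-dependent histone genes are known to end in a stem-loop and not in a poly(A) tail.

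Of 23 Wnt pathway genes 8 were higher and 2 lower (median 0.88), and 3 and 1 after the offset. Wnt10a was at 0.176 and 0 CPM with GFP and 1.89 and 2.501 CPM with mCherry (log2 fold change 4.86 ± 1.01, adjusted p = 0.0287). Wnt11 was at 0.669 and 0.333 CPM with GFP and 5.36 and 4.597 CPM with mCherry (log2 fold change 3.35 ± 0.41, adjusted p = 0.0119). Dkk3, a Dickkopf family member, was at 10.5 and 5.86 CPM with GFP and 22.1 and 28.7 CPM with mCherry (log2 fold change 1.64 ± 0.31, adjusted p = 0.0243). Lrp6, the coreceptor, was lower at 209.9 and 205 CPM with GFP and 93.7 and 114 CPM with mCherry (log2 fold change -1.004 ± 0.14, adjusted p = 0.0138). Wnt5a, a noncanonical ligand, was also lower at 32.2 and 33.3 CPM with GFP and 19.5 and 13.2 CPM with mCherry (log2 fold change -1.01 ± 0.21, adjusted p = 0.0262). Ligands were thus found on both sides.

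Of 15 EGF family ligands and ERBB receptors 1 was higher, Areg, and 4 were lower (median -0.17): Egfr (log2 fold change -0.70 ± 0.15, adjusted p = 0.0286), Erbb3 (log2 fold change -0.58 ± 0.11, adjusted p = 0.0235), Erbb4 (log2 fold change -1.43 ± 0.31, adjusted p = 0.0289) and the ligand Nrg1 (log2 fold change -0.92 ± 0.19, adjusted p = 0.0269). After the offset 1 was lower, and without mCherry replicate 1, 5 were higher.

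Of 12 mammary stem cell surface markers tested edgeR called 0 higher (1 at an unadjusted p under 0.05, 0 with DESeq2 and limma voom) and 3 lower (median -0.10). Lgr5, a receptor for R-spondins, was at 21.7 and 16.1 CPM with GFP and 7.84 and 4.51 CPM with mCherry (log2 fold change -1.61 ± 0.31, adjusted p = 0.0247). Tspan8, a tetraspanin, was at 153 and 142 CPM with GFP and 42.3 and 67.2 CPM with mCherry (log2 fold change -1.43 ± 0.24, adjusted p = 0.019). The integrin Itgb3 was at 187 and 123 CPM with GFP and 84.2 and 91.7 CPM with mCherry (log2 fold change -0.82 ± 0.21, adjusted p = 0.0435). The Itgb3 call was kept in only 5 of 14 alternatives and was lost with limma voom and the GC and length offset, among others. Itga6, the integrin used to enrich stem cells, was not called at 449 and 379.6 CPM with GFP and 403 and 315 CPM with mCherry. After the offset 1 was lower.

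Genes that can mark the genetic background of a colony were read as a list too, and so were imprinted genes. Both stand beside 11.6% higher and 12.6% lower of all genes tested. Of 18 genes known to vary between laboratory strains 1 was higher and 3 lower (median -0.23): Wdfy1 at 74.8 and 75.4 CPM with GFP and 34.6 and 43.5 CPM with mCherry (log2 fold change -0.95 ± 0.15, adjusted p = 0.0159), the pseudogene Pisd-ps1 (log2 fold change -0.85 ± 0.15, adjusted p = 0.0185) and Apobec3, the retroviral restriction factor (log2 fold change -0.83 ± 0.15, adjusted p = 0.0206), were lower, and H2-Ea-ps, at under 1 CPM, was higher. Nnt, whose product is lost in some C57BL/6 substrains, was at 28.6 and 34.6 CPM with GFP and 33.2 and 32.7 CPM with mCherry, which did not separate the lines. Of 20 imprinted genes 4 were higher and 5 lower (median 0.52). Plagl1 was at 43.5 and 51.1 CPM with GFP and 10.2 and 12.2 CPM with mCherry (log2 fold change -2.08 ± 0.17, adjusted p = 0.00992). Impact was at 23.8 and 26.3 CPM with GFP and 11.9 and 12.3 CPM with mCherry (log2 fold change -1.06 ± 0.14, adjusted p = 0.0136). Ndn, necdin, was higher at 0.387 and 0.422 CPM with GFP and 1.76 and 1.99 CPM with mCherry (log2 fold change 2.19 ± 0.35, adjusted p = 0.0167). The others called were Dlk1, Igf2 and Cdkn1c, higher, and Grb10, Igf2r and Zrsr1, lower. Kcnq1ot1, a noncoding RNA of an imprinted domain that was not on the list, was lower (log2 fold change -1.61 ± 0.18, adjusted p = 0.0111). On each autosome and the X chromosome, 9.02% to 14.5% of the genes tested were higher and 8.98% to 15.9% lower, and of 19 mitochondrial genes 2 were higher and 1 lower.

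**Figure D4:**
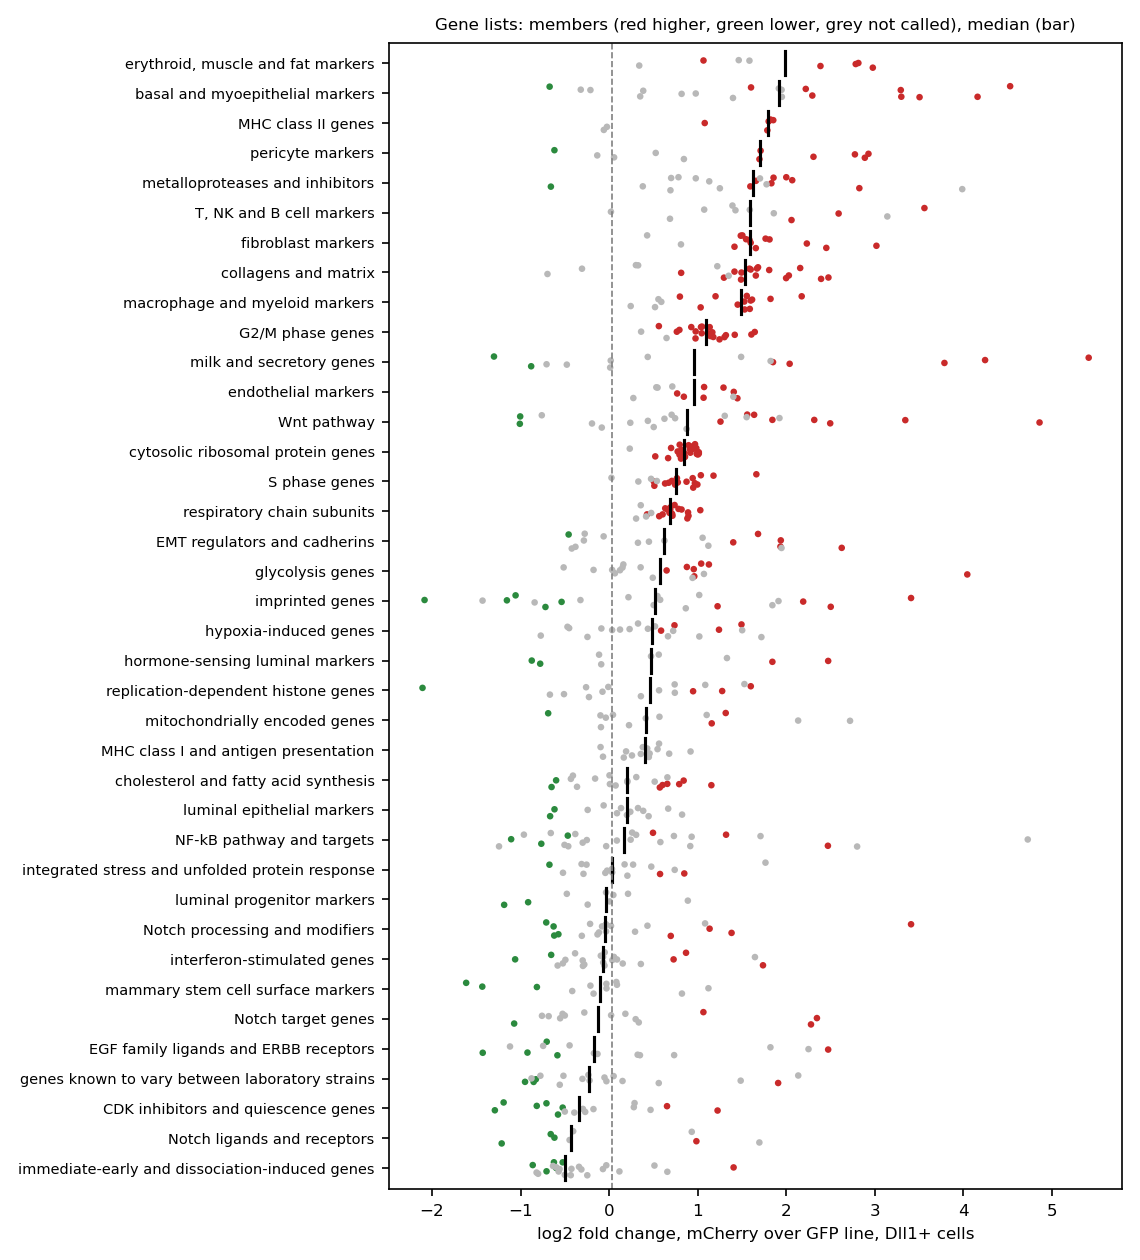
Log2 fold change of mCherry over GFP in Dll1+ cells for each member tested of each gene list, 1 point a gene, with genes called higher in red, called lower in green and not called in grey, a bar at each list's median, and lists ordered by that median. Erythroid, muscle and fat markers (median 1.99) stand at the top, and Notch ligands and receptors (median -0.43) and immediate-early genes (median -0.50) at the bottom.

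Calls also followed the kind and length of the transcript. Of 726 genes of the TEC class, loci with traces of transcription that the annotation holds for later experiments, 257 (35.4%) were lower and 0.689% higher, and of 790 lincRNAs 114 were lower and 11 higher. Of 135 olfactory receptor genes tested, which are known from the olfactory epithelium, 36 were lower and 0 higher, and of 72 vomeronasal receptor genes 23 were lower and 0 higher. These receptor families made up 0.0217% and 0.0253% of the counts for olfactory and 0.0109% and 0.0121% for vomeronasal genes in the GFP libraries, and 0.0117% and 0.0106%, and 0.0052% and 0.00473%, in the mCherry libraries. Of 375 Zfp zinc finger genes, a large family of DNA-binding factors, 85 were lower and 7 higher. Of all 82 ribosomal protein genes tested 76 were higher and 1, Rpl35a, lower (log2 fold change -0.74 ± 0.11, adjusted p = 0.0146). Processed pseudogenes had a median log2 fold change of 0.46, with 134 of 1540 (8.7%) higher and 107 (6.95%) lower. Both shares were below the 11.6% higher and 12.6% lower of all genes. The share of lower calls was above the 12.6% of all genes for the TEC class, lincRNAs (14.4%), the receptor families and the Zfp genes, and below it for antisense genes (8.64%) and processed transcripts (9.58%), and in each of these classes most genes were not called.

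Among protein-coding genes, split into 5 equal classes of transcript length, the shortest class (0.105 to 1.94 kb) held 28.8% higher and 1.36% lower calls, with a median log2 fold change of 0.47. The longest class (5.26 to 123 kb) held 5.35% higher and 32.9% lower calls, with a median of -0.36. The 3 classes between them fell in order. By GC content, the lowest of 5 classes (31% to 43.7%) held 7.55% higher and 21.6% lower calls, and the highest class (55.6% to 72.8%) 20.9% and 3.82%. Length and GC content thus went with the direction of the difference in every class. When an offset fitted to both was added, 1571 genes were higher and 1608 lower, of which 1181 and 1286 were among those called before. Library preparation was not given beyond the kit, and the part of RNA integrity, fragment size or capture in this relation was not tested.

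**Figure D5:**
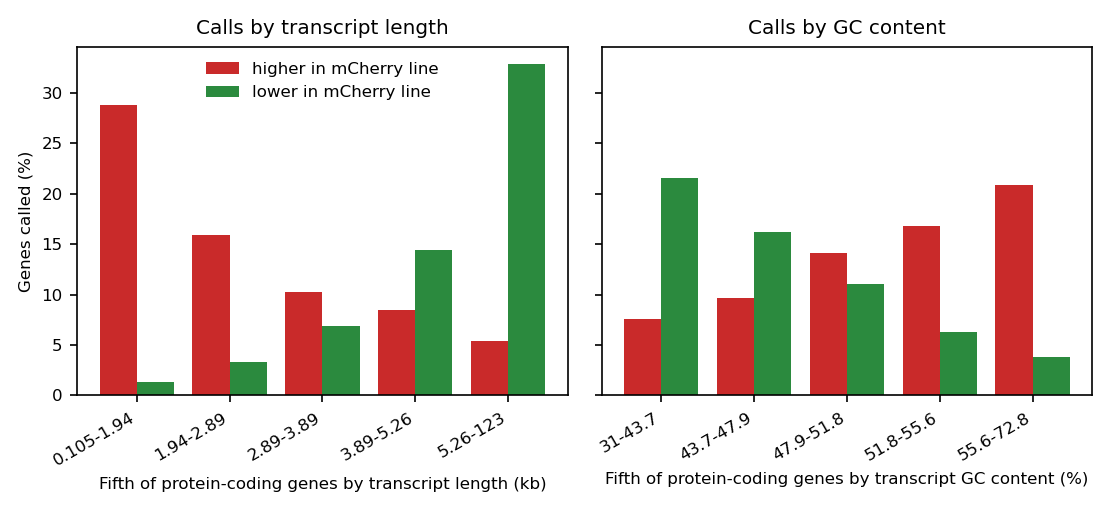
Percent of protein-coding genes called higher and lower in mCherry Dll1+ cells, by 5 classes of transcript length and of GC content. Lower calls go from 1.36% in the shortest to 32.9% in the longest class, and higher calls from 28.8% to 5.35%.

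The Dll1- cells of the same 4 mice gave a second comparison of the lines, which shares its mice with the first and is not an independent repeat. Of 18018 genes tested there, 2608 (14.5%) were higher and 2494 (13.8%) lower with mCherry. Without either GFP Dll1- library edgeR's quasi-likelihood test called 0 genes (4253 and 4429 at an unadjusted p under 0.05). Without mCherry Dll1- replicate 2, 4321 genes were higher. Of the genes higher in Dll1+ cells 1488 were also higher in Dll1- cells (65.6% of those called in Dll1+ and 57.1% of those in Dll1- cells), and 1746 of the lower genes were lower in both (70.7% and 70%). Atp10a, a phospholipid flippase, was the 1 gene called in opposite directions, at 18.2 and 19.8 CPM with GFP and 9.03 and 9.46 CPM with mCherry in Dll1+ cells (log2 fold change -1.05 ± 0.15, adjusted p = 0.0151) and with a log2 fold change of 1.15 ± 0.22, adjusted p = 0.0256 in Dll1- cells.

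Whether the line difference itself differed between Dll1+ and Dll1- cells was tested in one fit with the mouse as a block. Of 19843 genes 45 were called (0.227%), 6 with a higher and 39 with a lower log2 fold change in Dll1+ than in Dll1- cells, and 2453 had an unadjusted p under 0.05. The number was not stable: it was 3 without mouse 2 (GFP replicate 2), 787 without mouse 3 (mCherry replicate 1), 106 without mouse 4 (mCherry replicate 2), and 0 without the mouse block (1387 at an unadjusted p under 0.05). The named genes of lowest p are known from stromal cells or matrix. Rgs5 was higher with mCherry by 1.71 in Dll1+ and by 4.79 in Dll1- cells (difference -3.14 ± 0.18, adjusted p = 0.0151). F13a1, the coagulation factor XIII A chain known from resident macrophages, was at 22.5 and 49.6 CPM with GFP and 8.998 and 13.9 CPM with mCherry in Dll1+ cells. It was not called there (log2 fold change -1.67 ± 0.46, adjusted p = 0.0611). In Dll1- cells it was at 7.21 and 13.3 CPM with GFP and 14.7 and 25.5 CPM with mCherry (difference -2.57 ± 0.16, adjusted p = 0.0151). Unlike the macrophage markers listed, F13a1 was thus not higher with mCherry in Dll1+ cells. Lyz2 (difference -1.30 ± 0.099, adjusted p = 0.0271) and the matrix gene Ccdc80 (difference -1.80 ± 0.14, adjusted p = 0.0271) were higher on both sides and more so in Dll1- cells. For Dll1 the difference of the differences was -1.03 ± 0.14, adjusted p = 0.0613, and it was not called.

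The stromal lists were larger in Dll1- than in Dll1+ cells of the mCherry line. Fibroblast markers summed to 1471 and 1599 CPM with GFP and 9893 and 27220 CPM with mCherry among Dll1- cells, where 14 of 14 were higher, and macrophage markers to 192 and 171 CPM and 1127 and 1105 CPM, where 16 of 16 were higher. In the GFP line the sums of both lists in Dll1+ cells lay close to those in Dll1- cells. Cell cycle lists went the same way on both sides, with 14 of 22 G2/M and 13 of 20 S phase genes higher in Dll1- cells, and so did ribosomal protein genes (19 of 28). Beside their Dll1+ values above, Fam120b, Xist, Afap1 and Notch1 had log2 fold changes of 1.88 ± 0.11, -2.45 ± 0.14, -1.88 ± 0.11 and -1.31 ± 0.12 in Dll1- cells.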

How the data were processed

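RNA of sorted tumor cells was sequenced in 8 libraries from 4 mice, 2 of each reporter line. The authors mapped the reads with salmon (version not given in the sources used here) to GENCODE mouse transcripts on GRCm38.p6 and used tximport to obtain gene-level values. What they deposited are estimated counts in whole numbers with no scaling for depth. Stranded libraries were made, but the strand setting of the mapping is not given in the sources used here. The table holds 53697 genes, of which 53668 matched the GENCODE M21 annotation.

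The 2 mCherry and 2 GFP Dll1+ libraries were compared by edgeR 4.0.16 (R 4.3.3) after TMM scaling, with filterByExpr (minimum count 10) and the quasi-likelihood F test, unpaired, with Benjamini-Hochberg adjustment across the 19630 genes kept and a threshold of 0.05. CPM used TMM-scaled totals. Dll1- libraries were fitted alike, and the difference of the line differences was fitted over 8 libraries with the mouse of the labels as a block (r between the deviations of a mouse's libraries was 0.54 in the mCherry and -0.049 in the GFP line). Replicates differed by far more than counting noise (chi-square per gene 25.6 for GFP and 132 for mCherry). The depths allow a floor of 3 counts, 0.0458 to 0.106 CPM in Dll1+ libraries, which covers counting error only, as does a 95% interval of a ratio of counts.

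The genes named are Dll1, Notch ligands and receptors, Epcam, Ptprc, Pecam1 and Pdgfrb, the 12 highest and 12 lowest log2 fold changes with an adjusted p under the threshold, a mean of at least 1 CPM, no overlap and a gene name, the 5 genes of lowest p, at most 3 of lowest p from each of 38 lists, the 5 of lowest p in the difference of the differences and called genes within 1000 kb of Dll1. Other genes were named after their values were seen, and some genes that the rule picks are not reported here. Members and lists were chosen with earlier results of these data known. Scripts were tested on simulated counts. Alternatives used DESeq2 1.42.0, limma 3.58.1, other scalings and filters, all libraries, a replicate block, left-out libraries and, added after seeing the data, an offset for GC content and length of the longest transcript (natural splines with 5 degrees of freedom).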

Additional observations from a re-analysis of the deposited data

Results flagged for a closer look

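The line difference itself differed between Dll1+ and Dll1- cells for 12 of the genes described, by the test of that difference in edgeR's quasi-likelihood fit with the mouse as a block. For 10 of them it was smaller, or more negative, in Dll1+ cells. The pericyte gene Rgs5 had a difference of -3.14 (log2, Dll1+ minus Dll1-) and F13a1 -2.57, each with an adjusted p of 0.0151. F13a1 is known from macrophages but, unlike the macrophage markers listed, was not higher with mCherry in Dll1+ cells. Lyz2 at -1.30, the complement chains C1qa at -1.39, C1qb at -1.30 and C1qc at -1.30, and Cd74 at -1.17 are markers of macrophages. Ccdc80, of the matrix, gave -1.80 and Atp10a -2.22. Beside these, macrophage markers summed to 538 and 482 CPM in mCherry Dll1+ and 1127 and 1105 CPM in mCherry Dll1- libraries, and to 198 and 186 CPM and 192 and 171 CPM in the GFP line. Their part in the differences was not tested.

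For 2 genes the difference went the other way. Pde2a, a phosphodiesterase that breaks down cyclic nucleotides, gave 2.82 (adjusted p = 0.0439): it was at 0.916 and 1.93 CPM with GFP and 22.6 and 21.8 CPM with mCherry in Dll1+ cells and at 7.34 and 9.64 CPM against 22.02 and 16.2 CPM in Dll1- cells. The milk lipase gene Cel gave 2.01 (adjusted p = 0.048), at 4.61 and 3.28 CPM with GFP and 15.8 and 12.6 CPM with mCherry in Dll1+ cells and 23.6 and 23.9 CPM against 21.1 and 21.9 CPM in Dll1- cells. The pseudogene Rab11b-ps2, the last of the 10, was called in the same test (adjusted p = 0.0472). It was at 0 counts in mCherry Dll1+ libraries but at 4.06 and 3.695 CPM with GFP and 2.18 and 5.53 CPM with mCherry in Dll1- libraries, and reads of a pseudogene can come from its parent or from copies. None of these calls was made with limma voom or without the mouse block.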

How the results depend on the processing

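Of the alternatives run, other scalings, DESeq2, limma voom, at least 10 counts in every library and all 8 libraries kept the counts of higher and lower genes in Dll1+ cells within 1.5 times. Without a filter on low counts 3462 genes were higher, and after the GC and length offset 1608 were lower. Leaving out 1 library gave 0 to 3115 higher and 0 to 3042 lower genes in Dll1+ cells and 0 to 4321 higher and 0 to 3349 lower genes in Dll1- cells, 0 whenever a GFP library was left out. In these fits the lone library of a group is assumed to vary like the other pair, and the cause of the loss was not tested. Library totals alone put 42.1% and no filter 56% of all calls on the higher side, against 47.9%, and shifted the median of all genes to -0.012 and 0.091. With the replicate number as a block there were 1330 higher and 1385 lower genes. The numbers name different mice in the 2 lines and their deviations were not correlated (r = -0.059), so they pair no samples.

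The 45 genes with a difference of the differences became 13 with RLE size factors, 13 with upper-quartile scaling, 15 with library totals, 547 with DESeq2, 0 with limma voom (2296 at an unadjusted p under 0.05), 1143 without a filter, 207 with the GC and length offset, 0 without the mouse as a replicate block (1387 at an unadjusted p under 0.05) and 3 to 787 with a mouse left out. The causes were not tested. This count is therefore uncertain.

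Signs turned for 9 genes that were not called. With the GC and length offset, the log2 fold change was -0.11 for Epcam, -0.15 for Cldn3, -0.11 for Krt18, -0.18 for Krt8, -0.00332 for Nnt, -0.30 for Rela and 0.37 for Tbp. With a library left out it ranged from -0.14 to 0.00509 for Cdh1, -1.72 to 0.30 for Cxcl1, -0.0141 to 0.60 for Krt18, -0.16 to 0.49 for Krt8, -0.0917 to 0.21 for Nnt and -0.26 to 0.36 for Rela.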

Other observations

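Some genes outside the lists, named after their values were seen, stood apart by line. Gm42429, a predicted gene, had 0 counts in both GFP Dll1+ libraries and 63.5 and 17.8 CPM in the mCherry libraries, at least 385-fold higher, and in Dll1- cells it was at 0 and 0 CPM with GFP and 68.2 and 17.4 CPM with mCherry. Gm2223, at 0 in both mCherry Dll1+ libraries, was at 13.8 and 6.67 CPM with GFP and 0.0902 and 0 CPM with mCherry in Dll1- cells. The counts of Gm42429 and of the pseudogene Gm2223 thus followed the line on either side of the sort. Cxcl14, a chemokine of fibroblasts and epithelia, was at 11.9 and 9.19 CPM with GFP and 58.7 and 58.2 CPM with mCherry (log2 fold change 2.47 ± 0.16, adjusted p = 0.00992).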
